A study of Rattus norvegicus with 311 samples.

Results

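The collagen chains were the 48 rows of a rat liver culture count table, out of 22253, whose name, read up to its probe number, is Col, a type number, the letter a and a chain number. They were picked by name with no threshold on a measured value, and the family was chosen with earlier results of these data known. By type, 12 rows are fibrillar chains (types 1, 2, 3, 5, 11, 24 and 27), 7 are chains of basement membrane collagen (type 4) and 29 are other chains. The rows give 44 names over 27 types, of which 43 are gene symbols in RefSeq. The name Col25a13 is not a RefSeq symbol, and its row holds 2 counts in all. Col4a4, Col6a1, Col11a2 and Col26a1 each have 2 probes, which carry their probe number after the gene name here.

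The RNA came from primary hepatocytes of male Sprague Dawley rats, bought from Lonza and plated in collagen-coated wells either with non-parenchymal liver cells (co-culture, 155 libraries) or without them (monoculture, 156 libraries). The non-parenchymal cells, also bought, were cleared of red cells and purified on a density gradient. Cultures were sampled 1, 3 or 7 days after plating, and through the last day wells held phenobarbital at 0.1, 1 or 10 mM, GW7647 at 0.01, 0.1 or 1 µM, gemfibrozil at 10, 100 or 1000 µM, ketoconazole at 1, 10 or 30 µM, or vehicle. Phenobarbital is an activator of CAR, a nuclear receptor for xenobiotics, and ketoconazole is an antifungal azole that inhibits cytochrome P450 enzymes. GW7647 is a synthetic agonist of PPAR-alpha and gemfibrozil a fibrate drug that acts on the same receptor. These choices make 78 groups, 65 with 4 libraries, 7 with 3 and 6 with 5, and 24 of the libraries are vehicle wells. The coating is collagen protein, which an RNA assay does not read.

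TempO-Seq ligates pairs of detector oligonucleotides on their transcripts and counts the products, so a level is given as CPM, the usual scaling of the counts of 1 probe to library size. Probes differ in how well they work, so levels of different genes cannot be compared. Libraries held 412414 to 12272575 counts, with a median of 6054414, and vehicle libraries held 3392976 to 10820668. The replicate number is the plate (1, 3, 5 or 7, with plate 9 for 9 day 3 libraries), and values of single vehicle libraries stand below in that plate order. The labels call replicates biological without naming separate animals, so the spread behind each p-value is that between libraries, and may be technical. In 33 monoculture libraries the description names phenobarbital and the compound label ketoconazole, and in 3 libraries the description gives GW7647 at 0.1 µM and the dose label 1 µM. Both sets were placed by description. The protocol gives phenobarbital in mM and the dose label in µM, and mM was used.

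Collagens are trimers of alpha chains wound into a triple helix. Fibrillar chains of types I, III and V are secreted as procollagens, trimmed outside the cell and crosslinked into fibrils. Type IV forms the sheet-like network of basement membranes, type VI forms beaded microfilaments, and type VII anchors basement membranes to the stroma. In liver, type IV and type VI are found in the matrix of the sinusoids, and hepatic stellate cells that have turned into myofibroblasts are the main source of fibrillar collagen in injury.

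Type IV genes lie in head-to-head pairs that share the sequence between their starts, and the sequences below are shown because the results set the members of such pairs side by side. The stretch between the starts of Col4a1 and Col4a2 (chr16:84885521-84885596, plus strand) and the overlap of the windows before Col4a3 and Col4a4 (chr9:91323740-91323827, plus strand) are given. Beside them stand the 250 bases before the starts of 3 genes with different time courses, Col1a2 (chr4:33518307-33518556, plus strand), Col4a5 (chrX:109907109-109907358, plus strand) and Col5a3 (chr8:27625949-27626198, minus strand). Sequences are from RefSeq, build GRCr8, written 5′ to 3′, with capitals on each CCAAT box and each GC box (GGGCGG) read on either strand.
Col4a1 and Col4a2, between starts: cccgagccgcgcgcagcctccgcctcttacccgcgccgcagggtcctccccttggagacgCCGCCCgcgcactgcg
Col4a3 and Col4a4, shared window: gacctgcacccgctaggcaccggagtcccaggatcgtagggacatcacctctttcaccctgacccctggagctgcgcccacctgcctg
Col1a2: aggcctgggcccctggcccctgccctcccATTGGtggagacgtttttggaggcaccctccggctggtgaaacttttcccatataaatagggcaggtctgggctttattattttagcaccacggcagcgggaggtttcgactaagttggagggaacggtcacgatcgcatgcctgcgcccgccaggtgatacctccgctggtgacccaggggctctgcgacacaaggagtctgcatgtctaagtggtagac
Col4a5: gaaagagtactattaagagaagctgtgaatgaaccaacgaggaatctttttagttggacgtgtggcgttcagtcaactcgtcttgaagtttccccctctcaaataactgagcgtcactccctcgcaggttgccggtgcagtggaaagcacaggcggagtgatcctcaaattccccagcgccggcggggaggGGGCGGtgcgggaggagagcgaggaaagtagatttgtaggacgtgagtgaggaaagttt
Col5a3: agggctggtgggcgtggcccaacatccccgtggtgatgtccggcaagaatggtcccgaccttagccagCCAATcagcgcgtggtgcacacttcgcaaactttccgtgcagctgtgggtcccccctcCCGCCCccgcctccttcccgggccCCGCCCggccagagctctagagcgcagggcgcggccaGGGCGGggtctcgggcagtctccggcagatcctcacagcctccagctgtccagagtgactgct
The starts of Col4a1 and Col4a2 are 76 bases apart, those of Col4a3 and Col4a4 412 and those of Col4a5 and Col4a6 1414. A start here is the one its window was cut from, and the annotated span of a gene can reach further upstream. The span of Col4a5 begins at base 109907251, and that of Col5a3, on the minus strand, ends at base 27626002. Their printed windows therefore lie partly inside the annotated gene. In the 250 bases before a start, CCAAT occurred for 11 of the 35 collagen genes that RefSeq's table holds, and for 34.3% of all 27457 genes in it. GGGCGG occurred for 19 of the 35, against 32.4% of all genes. The motifs do not overlap, and a match describes letters and not a bound site.

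Most collagen rows had few counts early and some had few throughout. Averaged over all 311 libraries, 11 rows exceeded 10 CPM, among them Col1a2, Col3a1, Col4a2, Col6a1_52910 and Col6a2. At the low end, 9 rows entered no test over time: Col28a1, Col22a1, Col2a1, Col9a2, Col26a1_34206, Col6a4, Col6a5, Col9a1 and Col25a13. They held 2 to 133 counts over all libraries, and none averaged above 0.0921 CPM. Of the 48 rows, 26 passed the filter on low counts among vehicle libraries and 39 among sums of treated wells. The filter asks for about 1.71 CPM in 4 libraries, and of the 26 rows 10 reached it on day 1, 14 on day 3 and 25 on day 7. Passing only through day 7 favours rows that are higher then than on day 1. The counts of members over all 26 rows are therefore given as an account and support nothing.

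In vehicle wells the summed collagen level was 66.1 to 162 CPM on day 1, 232 to 561 on day 3 and 3525 to 22038 on day 7 in co-culture. In monoculture it was 48 to 146, 158 to 431 and 1855 to 16704 CPM on the same days. In both cultures every day 7 library lay above every earlier one. Such a sum follows the probes with most counts. On day 7 Col3a1, Col6a2 and Col1a2 held on average 37.2%, 18.4% and 15.7% of the collagen counts in co-culture. In monoculture they held 33.7%, 17.4% and 13.5%. In these bulk libraries, more cells of a type and more RNA per cell cannot be told apart. With edgeR's quasi-likelihood test and Benjamini-Hochberg adjustment over 11823 rows, day 7 exceeded day 1 for 22 members in co-culture and 21 in monoculture. Over all rows tested the share called higher was 15.2% in co-culture and 13.7% in monoculture, and the share called lower was 7.56% and 8.75%. One member, Col18a1, was called lower in co-culture and none in monoculture. Among the 10 rows that reached the filter on day 1 already, 8 were higher on day 7 in co-culture and 1 lower, with a median log2 fold change of 6.23, and 8 were higher in monoculture, with a median of 5.63. The median over all rows tested was 0.22 in co-culture and 0.24 in monoculture.

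Of 9 fibrillar rows tested 7 were higher on day 7 than on day 1 in each culture. Col3a1, the only chain of type III collagen, stood at 31.6, 3.89, 13.8 and 8 CPM on day 1, 68.2, 30.8, 154 and 45.3 on day 3 and 2413, 4106, 11296 and 1054 on day 7 in co-culture. In monoculture its 3 sets of values were 26.9, 6.44, 13.1 and 6.55, then 86.9, 20.1, 77.7 and 14.7, then 1678, 582, 7707 and 521 CPM. Every day 7 library lay above every earlier one, and on day 7 plate 5 was highest and plate 7 lowest in both cultures. The log2 fold change of day 7 over day 1 was 8.37 ± 1.14 in co-culture (± SE, adjusted p = 2.3e-05) and 7.68 ± 1.10 in monoculture (adjusted p = 4.8e-05). Within plates the log2 difference ran from 6.23 to 9.87 in co-culture and from 5.94 to 9.14 in monoculture.

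Col1a2, the alpha2 chain of type I collagen, had 10.3, 0.864, 10.4 and 1.52 CPM on day 1, 30.7, 28.9, 107 and 21.9 on day 3 and 1024, 1613, 2964 and 762 on day 7 in co-culture. In monoculture it had 11.7, 1.14, 10.6 and 0.491, then 11.8, 7.14, 44.8 and 9.91, then 939, 148, 2172 and 304 CPM. Day 7 over day 1 gave a log2 fold change of 8.08 ± 1.15 in co-culture (adjusted p = 4.2e-05) and 7.27 ± 1.11 in monoculture (adjusted p = 8.6e-05). Its partner Col1a1, the alpha1 chain, had no count in the 8 day 1 libraries and a count in 1 library of each culture on day 3. On day 7 the probe of Col1a1 read 21.2, 41.2, 62.9 and 7.04 CPM in co-culture and 16.3, 4.68, 43.3 and 5.15 CPM in monoculture. With the floor set at 3 counts in the whole group, day 7 was at least 322-fold higher than day 1 in co-culture and at least 206-fold higher in monoculture. Such bounds, and intervals on counts, cover counting error only.

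The other fibrillar chains split. Col5a1, which forms type V collagen inside larger fibrils, had 74.3, 119.7, 172 and 21 CPM on day 7 in co-culture, against 1.21, 0.648, 1.11 and 1.71 CPM on day 1, and 68.5, 28.7, 195 and 14.4 CPM in monoculture, against 0.976, 0.572, 3.28 and 0.819 CPM. Its groups did not overlap, and its log2 fold changes were 6.37 ± 0.87 in co-culture and 5.85 ± 0.85 in monoculture (adjusted p = 2.5e-05 and 5e-05). Col11a1, a chain of type XI collagen, had no count in any vehicle library on days 1 and 3, and 21.5, 26.5, 26.6 and 16.8 CPM on day 7 in co-culture and 13, 3.12, 37.3 and 7.32 CPM in monoculture. That made day 7 at least 136-fold higher than day 3 in co-culture and at least 134-fold higher in monoculture. Col27a1, a fibrillar chain known mainly from cartilage, had 14.8, 38, 14.6 and 6.4 CPM on day 7 in co-culture, against 0.607, 1.08, 2.88 and 0.952 CPM on day 1, and 16.6, 37, 39.3 and 15.3 CPM in monoculture, against 1.39, 3.15, 3.1 and 2.78 CPM. It rose on day 7 by 3.69 ± 0.68 in co-culture and 3.47 ± 0.66 in monoculture, on the log2 scale against day 1 (adjusted p = 0.00055 and 0.0008).

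Col5a3, the alpha3 chain of type V, followed another course than Col5a1. In co-culture it had 17.6, 19.4, 10.9 and 13.1 CPM on day 1, 4.22, 5.22, 0 and 2.24 on day 3 and 24.4, 35.4, 25.5 and 4.7 on day 7. In monoculture it had 11, 40.5, 16.2 and 6.22, then 0, 5.35, 3.15 and 2.12, then 20.2, 11.5, 50.9 and 5.83 CPM. All 8 day 3 libraries lay below all 8 day 1 libraries, and day 7 overlapped day 1. On day 3 the log2 fold change against day 1 was -2.31 ± 0.84 in co-culture and -2.69 ± 0.83 in monoculture, and the adjusted p was 0.081 in each. Both passed with plate as a block, at 0.035 in co-culture and 0.049 in monoculture. Day 7 exceeded day 3 by 2.92 ± 0.85 in co-culture and 3.03 ± 0.84 in monoculture (adjusted p = 0.022 and 0.02). These day 7 calls were lost without plate 1 or plate 5 in either culture and without plate 3 in co-culture, where the adjusted p reached 0.082 in co-culture and 0.15 in monoculture.

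**Figure D1:**
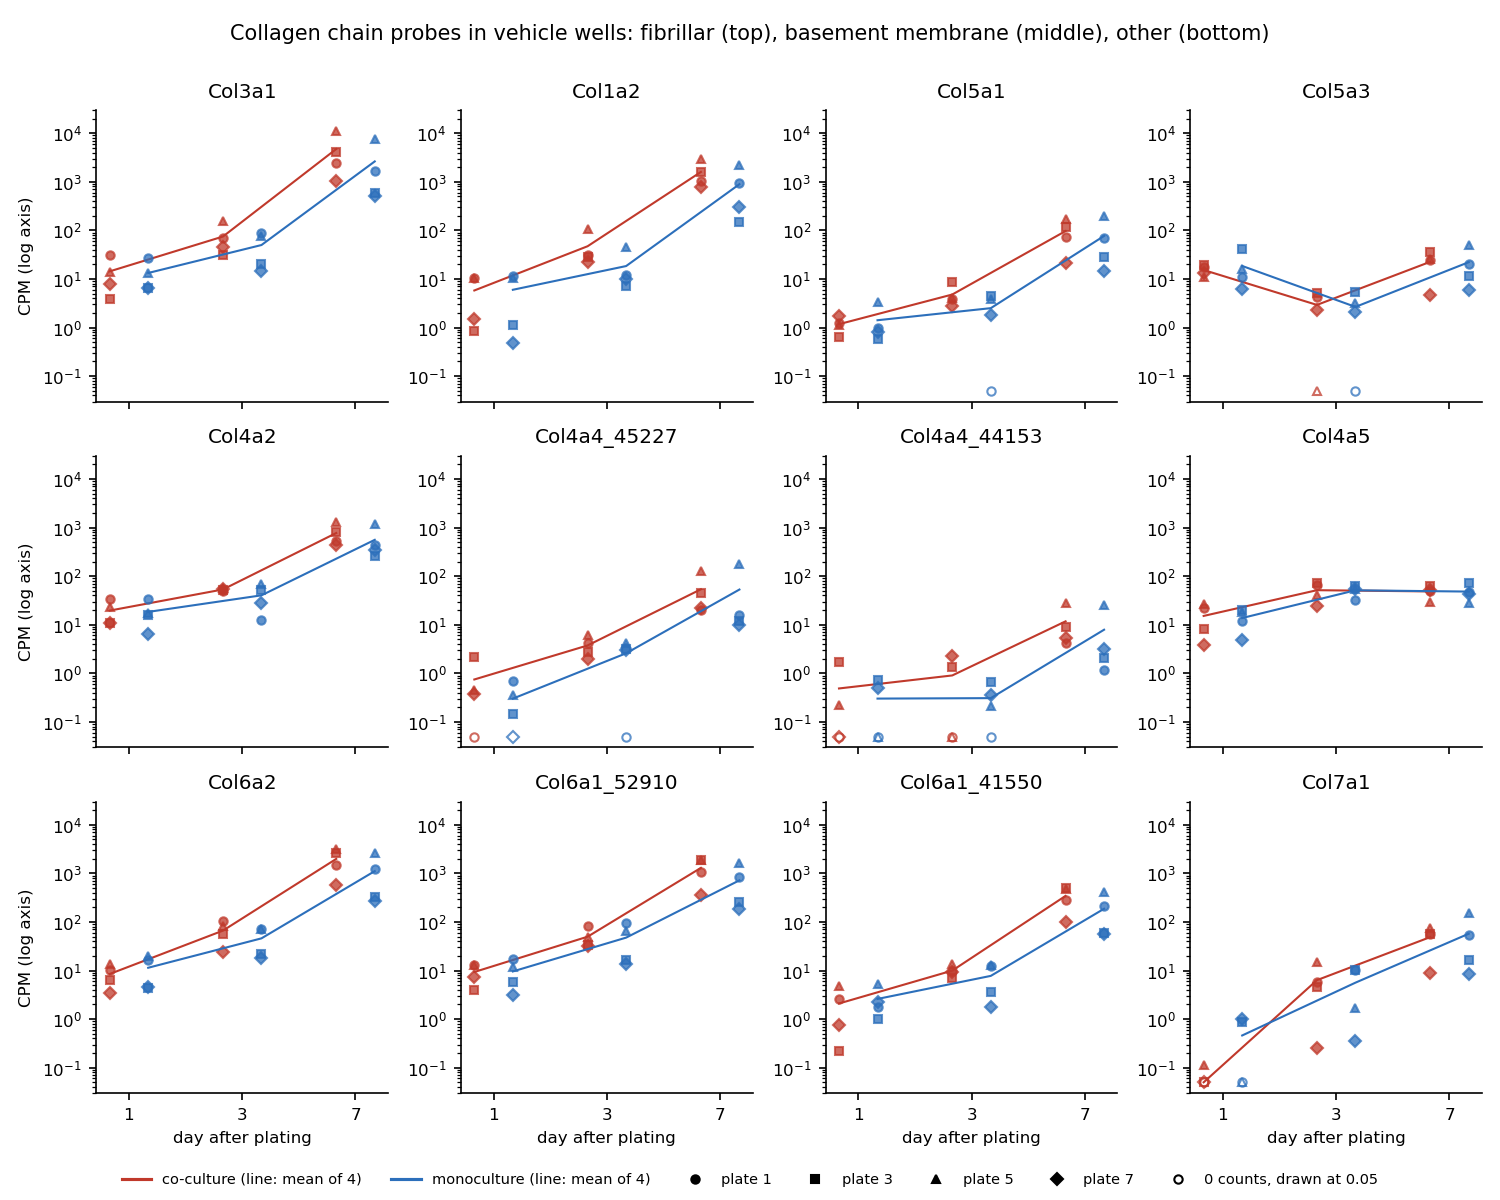
Level of 12 collagen rows (CPM, log axis) in each vehicle library on days 1, 3 and 7 after plating, for co-culture (red, left) and monoculture (blue, right), with symbols for the plate, open symbols for 0 counts and lines through the means of 4 libraries. Col3a1, Col1a2, Col4a2, Col6a2 and both Col6a1 probes sit highest on day 7 in every plate, while Col4a5 levels off after day 3 and Col5a3 is lowest on day 3.

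All 5 basement membrane rows tested were higher on day 7 than on day 1 in both cultures, by differing courses. Col4a2, the alpha2 chain, had 33.8, 11, 22.6 and 10.7 CPM on day 1, 48.7, 52.8, 57.8 and 53.5 on day 3 and 528, 802, 1321 and 436 on day 7 in co-culture. In monoculture it had 33.2, 16, 17.7 and 6.55, then 12.7, 50.8, 70 and 27.6, then 434, 255, 1194 and 352 CPM. Its log2 fold change of day 7 over day 1 was 5.32 ± 0.62 in co-culture (adjusted p = 4.7e-06) and 4.99 ± 0.61 in monoculture (adjusted p = 7.8e-06). Col4a1, the alpha1 chain that pairs with it in the trimer and across the promoter printed above, read 1.28, 2.82, 1.74 and 2.88 CPM on day 7 in co-culture and 2.39, 0.312, 3.32 and 0.542 CPM in monoculture. On day 1 the 8 libraries held 1 count of Col4a1 in all. In co-culture the ratio of day 7 to day 1 was 74, with an exact 95% interval on the counts of 12.8 to 2971, and in monoculture day 7 was at least 19.7-fold higher.

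Col4a5, an X-linked chain whose loss causes Alport syndrome in humans, was called higher than on day 1 by day 3 already, with no call between days 3 and 7. In co-culture it had 22.3, 8.21, 26.4 and 3.81 CPM on day 1, 66.3, 73.9, 41.1 and 24.2 on day 3 and 50.4, 61.3, 29.3 and 52.7 on day 7. In monoculture it had 11.7, 20.5, 17.9 and 4.91, then 32.7, 62.2, 55.3 and 54.3, then 47, 74, 27.5 and 43.9 CPM. Day 3 exceeded day 1 by 1.81 ± 0.51 in co-culture and 1.94 ± 0.51 in monoculture on the log2 scale (adjusted p = 0.027 and 0.039). Day 7 against day 3 gave -0.11 ± 0.49 in co-culture and -0.04 ± 0.49 in monoculture, which did not pass the test. The day 3 calls were lost whichever plate was left out (adjusted p up to 0.2 in co-culture and 0.15 in monoculture), and those of day 7 over day 1 without plates 1, 3 or 7 in co-culture (0.15) and without plate 1 in monoculture (0.058). Both probes of Col4a4, whose chain joins Col4a5 in glomerular basement membrane, were called higher on day 7 than on day 3 as well as on day 1. Against day 3, the call of Col4a4_44153 was lost whichever plate was left out in co-culture (adjusted p up to 0.26) and without plates 1, 5 or 7 in monoculture (0.31). That of Col4a4_45227 was lost without plate 3 in co-culture and without plate 5 in monoculture (0.13). Probe Col4a4_45227 read 20.2, 44.6, 128 and 22.1 CPM on day 7 in co-culture, against 0, 2.16, 0.444 and 0.381 CPM on day 1, and 15.7, 11.9, 175 and 9.76 CPM in monoculture, against 0.697, 0.143, 0.365 and 0 CPM. The log2 fold change of day 7 over day 1 was 6.23 ± 1.09 in co-culture and 7.38 ± 1.17 in monoculture (adjusted p = 0.00031 and 0.00013), and plate 5 was highest on day 7 in both cultures. Probe Col4a4_44153 read 4.12, 8.84, 28.6 and 5.34 CPM on day 7 in co-culture, against 0, 1.73, 0.222 and 0 CPM on day 1, and 1.2, 2.03, 25.2 and 3.12 CPM in monoculture, against 0, 0.716, 0 and 0.491 CPM. Its log2 fold changes were 4.64 ± 1.29 and 4.67 ± 1.31 (adjusted p = 0.012 and 0.013). They missed the threshold without plate 5 or plate 7 in co-culture (up to 0.1) and without plate 5 in monoculture (0.31).

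Among the other chains, 10 of 12 rows tested were higher on day 7 in co-culture and 9 in monoculture, those of type VI among them. Col6a2, the alpha2 chain, had 10.1, 6.48, 13.9 and 3.43 CPM on day 1, 104, 55.2, 81.7 and 23.7 on day 3 and 1494, 2631, 3231 and 579.8 on day 7 in co-culture. In monoculture it had 16.4, 4.29, 20.2 and 4.58, then 73.1, 22.3, 70.6 and 17.7, then 1236, 319, 2614 and 276 CPM. No day 7 library overlapped an earlier one, and plate 5 was again highest on day 7. Against day 1, the day 7 log2 fold change was 7.87 ± 0.92 in co-culture and 6.68 ± 0.88 in monoculture (adjusted p = 5.1e-06 and 1.7e-05). The alpha1 chain Col6a1 has 2 probes. Probe Col6a1_52910 read 12.8, 3.89, 13.2 and 7.43 CPM on day 1, 83.9, 34.1, 48.9 and 31.9 on day 3 and 1049, 1859, 1910.2 and 364 on day 7 in co-culture, and 17.4, 5.72, 12 and 3.11, then 95.1, 16.7, 64.7 and 13.6, then 827, 261, 1599.5 and 185 CPM in monoculture. Probe Col6a1_41550 read 286, 508, 481 and 99.1 CPM on day 7 in co-culture, against 2.63, 0.216, 4.77 and 0.762 CPM on day 1, and 210.0, 60.5, 420.1 and 56.2 CPM in monoculture, against 1.81, 1, 5.29 and 2.29 CPM. Day 7 lay above day 1 without overlap for both probes. On the log2 scale probe Col6a1_52910 changed by 7.13 ± 0.88 in co-culture and 6.29 ± 0.85 in monoculture, and probe Col6a1_41550 by 7.27 ± 0.89 and 6.27 ± 0.85. Col6a3, the large alpha3 chain of the same trimer, read 31.1, 37.2, 86.3 and 20.3 CPM on day 7 in co-culture, against 0.405, 0, 0.222 and 0 CPM on day 1, and 30.5, 4.52, 67 and 9.89 CPM in monoculture, against 0, 0, 1.09 and 0 CPM (adjusted p = 8.2e-05 and 0.00024).

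Col7a1, the chain of anchoring fibrils, had 0, 0, 0.111 and 0 CPM on day 1, 5.75, 4.67, 14.7 and 0.249 on day 3 and 56.4, 56.1, 73.6 and 8.75 on day 7 in co-culture. In monoculture it had 0, 0.859, 0 and 0.982, then 10.2, 10.3, 1.68 and 0.354, then 54, 16.2, 149.8 and 8.67 CPM. In co-culture the day 1 libraries held 1 count in all, so the ratio of day 7 to day 1 was 1457 with an exact 95% interval of 261 to 57604. In monoculture the log2 fold change was 6.97 ± 1.22 (adjusted p = 0.00035).

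Col16a1 and Col12a1, which sit on the surface of fibrils, Col8a1, a short-chain collagen, and Col5a2, the alpha2 chain of type V, were also higher on day 7 in both cultures. Their day 7 levels were 1.71 to 16, 1.71 to 7.53, 13.4 to 75.5 and 4.48 to 23.6 CPM in co-culture. Their day 1 levels there ran up to 0, 0.222, 1.71 and 0.887 CPM. Col20a1, another fibril-associated chain, passed in co-culture (4.41 ± 1.55, adjusted p = 0.043) and not in monoculture (2.71 ± 1.37, adjusted p = 0.16), and Col11a2_45252 and Col13a1 passed in neither. Leaving out any 1 plate ended the calls of Col20a1 in co-culture (adjusted p up to 0.16) and Col12a1 in monoculture (0.087), and leaving out plate 5 those of Col5a2 (0.058) and Col8a1 (0.097) in monoculture.

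The multiplexins, whose C-terminal pieces are released as endostatin-like fragments, had different courses. Col15a1 had no count in any vehicle library on days 1 and 3, and 8.95, 18.6, 53.6 and 31 CPM on day 7 in co-culture and 16.3, 2.5, 23.6 and 12.5 CPM in monoculture. By the same floor, day 7 was at least 308-fold higher in co-culture and at least 168-fold higher in monoculture. Col18a1, which hepatocytes are known to express, had 1.14, 3.01, 2.43 and 3.52 CPM on day 7 in co-culture, against 14, 7.56, 6.77 and 9.14 CPM on day 1, and 2.09, 4.06, 2.49 and 5.56 CPM in monoculture, against 6.69, 2.58, 10.4 and 5.73 CPM. It fell in co-culture (-1.83 ± 0.58, adjusted p = 0.026), where the groups did not overlap. In monoculture the change of -0.74 ± 0.57 did not pass (adjusted p = 0.36), and the difference between the cultures was not tested. Leaving out any 1 plate ended the co-culture call of Col18a1 (adjusted p up to 0.093).

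**Figure D2:**
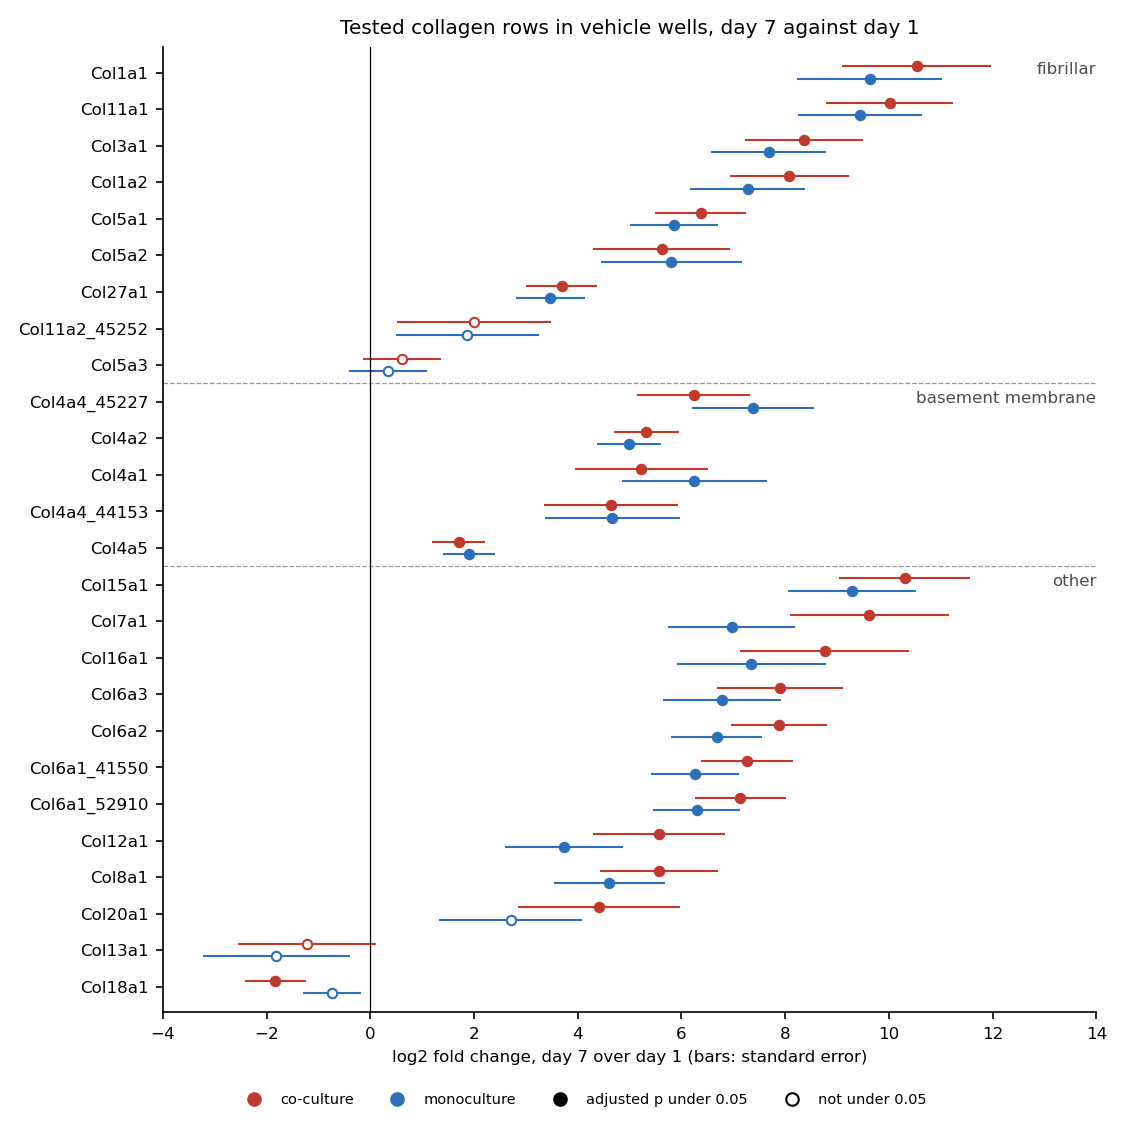
Log2 fold change of day 7 over day 1 (x axis, bars are standard errors) for the 26 tested collagen rows (y axis, grouped by class) in vehicle wells, for co-culture (red, upper) and monoculture (blue, lower), filled where the adjusted p is under 0.05. Fitted values of Col1a1, Col11a1 and Col15a1, with no count on day 1, and of Col4a1, Col12a1, Col16a1 and Col7a1, with 0 to 3 counts in a day 1 group, depend on how low counts are treated and are no measure of size. Col18a1 and Col13a1 lie left of 0 in both cultures, Col5a3 lies nearest to 0, and Col4a5 has the smallest of the filled positive values.

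The days between were also compared. Day 3 exceeded day 1 for 6 members in co-culture (Col1a2, Col27a1, Col4a5, Col6a1_52910, Col6a2 and Col7a1), where 4.11% of all rows were called higher and 4.95% lower. In monoculture 1 member was called, Col4a5, where 1.76% of all rows were called higher and 0.761% lower. These counts rest on single plates: without plate 3 or plate 5 none of the 6 co-culture calls was made, without plate 1 only 1 of them was and without plate 7 only 2 were, and without any 1 plate the monoculture count was 0. With plate as a block 10 members were higher and 1, Col5a3, lower in co-culture, and 4 were higher and Col5a3 lower in monoculture. Shares of all rows, here and below, are those of the test without the block. Counts of members with the block therefore have no share to be set against. Day 7 exceeded day 3 for 19 members in each culture, where 11.8% of all rows were called higher in co-culture and 8.14% in monoculture, and 6.69% and 7.54% lower. In monoculture that count was 12 without plate 1 and 11 without plate 5. Among the 10 rows that reached the filter on day 1, 7 were higher on day 7 than on day 3 in co-culture and 8 in monoculture.

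The treated wells share no library with the vehicle comparison, and their days were compared in the same way. For each plate, counts were summed by culture and day over the 6 to 12 treated conditions present on all days in both cultures, which gave 4 sums for each culture and day and 15416 rows tested. Day 7 exceeded day 1 for 28 of the 39 members tested in co-culture and 26 in monoculture, and no member was called lower. Of the 39 rows 18 reached the filter, about 0.142 CPM in 4 sums, only through a later day. That favours rows higher on the later day, so the counts over all 39 are an account too. Of the 18, 14 were called higher on day 7 in co-culture and 12 in monoculture. Among the 21 that reached the filter on day 1, 14 were higher on day 7 than on day 1 in each culture. Their median log2 fold change was 5.22 in co-culture and 5.01 in monoculture. Over all rows 18.6% were called higher and 11.9% lower in co-culture, and 18.5% and 13% in monoculture. Col3a1 changed by 8.50 ± 1.23 in co-culture and 8.23 ± 1.22 in monoculture (adjusted p = 2.6e-05 and 3e-05), and Col6a2 by 7.83 ± 1.04 and 7.53 ± 1.02 (adjusted p = 8.9e-06 and 1.2e-05). Col4a2 changed by 5.22 ± 0.64 in co-culture and 5.01 ± 0.63 in monoculture (adjusted p = 3.8e-06 and 5.2e-06).

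Col4a5 and Col5a3 had the same signs in the treated wells as in vehicle wells. Col4a5 exceeded day 1 on day 3 by 1.47 ± 0.36 in co-culture and 2.31 ± 0.37 in monoculture (adjusted p = 0.013 and 0.00034), and its day 7 differed from day 3 by -0.32 ± 0.35 and -0.30 ± 0.35 (adjusted p = 0.64 and 0.62). Col5a3 was lower on day 3 than on day 1 by fitted values of -1.47 ± 0.54 in co-culture and -1.64 ± 0.54 in monoculture, which missed the threshold (adjusted p = 0.089 and 0.059). Blocking on plate, they passed at 0.023 and 0.013. Day 7 exceeded day 3 for Col5a3 by 2.11 ± 0.55 in co-culture and 2.09 ± 0.55 in monoculture (adjusted p = 0.016 and 0.016). Without plate 5 in either culture, plate 3 in co-culture or plate 1 in monoculture these were not called (up to 0.2 and 0.17), nor was Col4a5 on day 3 in co-culture without plate 1 or plate 3 (0.086). Col18a1 did not pass in the treated wells, with -0.73 ± 0.39 in co-culture and -0.89 ± 0.39 in monoculture on day 7 against day 1 (adjusted p = 0.17 and 0.09).

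Among the treated wells, day 3 exceeded day 1 for 4 members in co-culture (Col27a1, Col4a5, Col7a1 and Col4a4_45227) and for 5 in monoculture (those 4 and Col26a1_38311). Over all rows 5.36% were called higher and 3.9% lower in co-culture, and 6.02% and 3.31% in monoculture. With plate as a block 17 members were higher and 1 lower in co-culture, and 14 were higher and 1 lower in monoculture. Without plate 3 the co-culture count was 1 and without plate 1 it was 2, and in monoculture it was 2 without plate 1 or plate 3 and 3 without plate 5 or plate 7. Day 7 exceeded day 3 for 25 members in each culture, where 7.56% of all rows were called higher and 3.36% lower in co-culture, and 8.01% and 4.33% in monoculture. Without plate 5 these counts were 14 in co-culture and 13 in monoculture. The sums of treated wells also let rare chains be tested. Col4a3, Col8a2, Col14a1 and Col19a1 passed on day 7 against day 1 in both cultures, and all 4 entered the test only through day 7. Over the 4 sums of co-culture Col4a3 had 213 counts on day 7 and 1 on day 1, and Col8a2 had 123 and 1. Col14a1 had 177 counts on day 7 and 7 on day 1 there, and Col19a1 had 216 and 6. Without plate 5 Col14a1 was not called in either culture, nor Col19a1 without plate 7, and in monoculture leaving out plate 1 or plate 5 ended the call of Col8a2. In monoculture Col14a1 was also lost without plate 3, and Col19a1 without plate 3 or plate 5 and with no filter (adjusted p up to 0.21 for each). Those 4 were picked out after their values were seen.

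No collagen row passed the test between co-culture and monoculture. In vehicle wells 0 of 26 tested members differed between co-culture and monoculture by edgeR on any day, and 0 by DESeq2. At an unadjusted p under 0.05 there were 0 members on day 1, 1 on day 3 (Col12a1) and 0 on day 7. Of all rows 0% were called higher on days 1, 3 and 7, and 0%, 0.0169% and 0% lower. On day 7 the difference of co-culture minus monoculture was 0.82 ± 0.83 for Col3a1, 0.81 ± 0.84 for Col1a2, 0.45 ± 0.51 for Col4a2, 0.81 ± 0.68 for Col6a2 and -0.02 ± 0.49 for Col4a5 on the log2 scale. Among the sums of treated wells 0 of 39 members differed on any day by edgeR or DESeq2, where 0% of all rows were called either way, and 2, 1 and 0 members had an unadjusted p under 0.05 on days 1, 3 and 7. There the day 7 difference was 0.16 ± 0.89 for Col3a1 and 0.33 ± 0.77 for Col6a2. With standard errors of this size a difference between the cultures of the size fitted could not be told from none.

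Pairing each co-culture well with the monoculture well of the same plate, compound, dose and day showed how the plates varied. On day 7 Col3a1 was higher in co-culture in 36 of 51 pairs, with a mean log2 difference of 0.04 to 1.89 over the 4 plates. Col6a1_52910 was higher in 39 of 51 pairs, with plate means of 0.03 to 1.56, and Col5a1 in 43 of 51 pairs, with plate means of -0.47 to 1.48. Col4a5 was higher in co-culture in 19 of 51 pairs and Col4a2 in 39 of 51. Plates 3 and 7 had the highest mean for Col3a1, Col1a2 and the Col6a1 and Col6a2 rows, and over the 12 rows plotted the means of plates 1 and 5 ran between -0.80 and 0.56. On day 1 the pairs were split for Col3a1, with 28 of 52 higher in co-culture. Wells of 1 plate are not replicates, so these are descriptions.

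**Figure D3:**
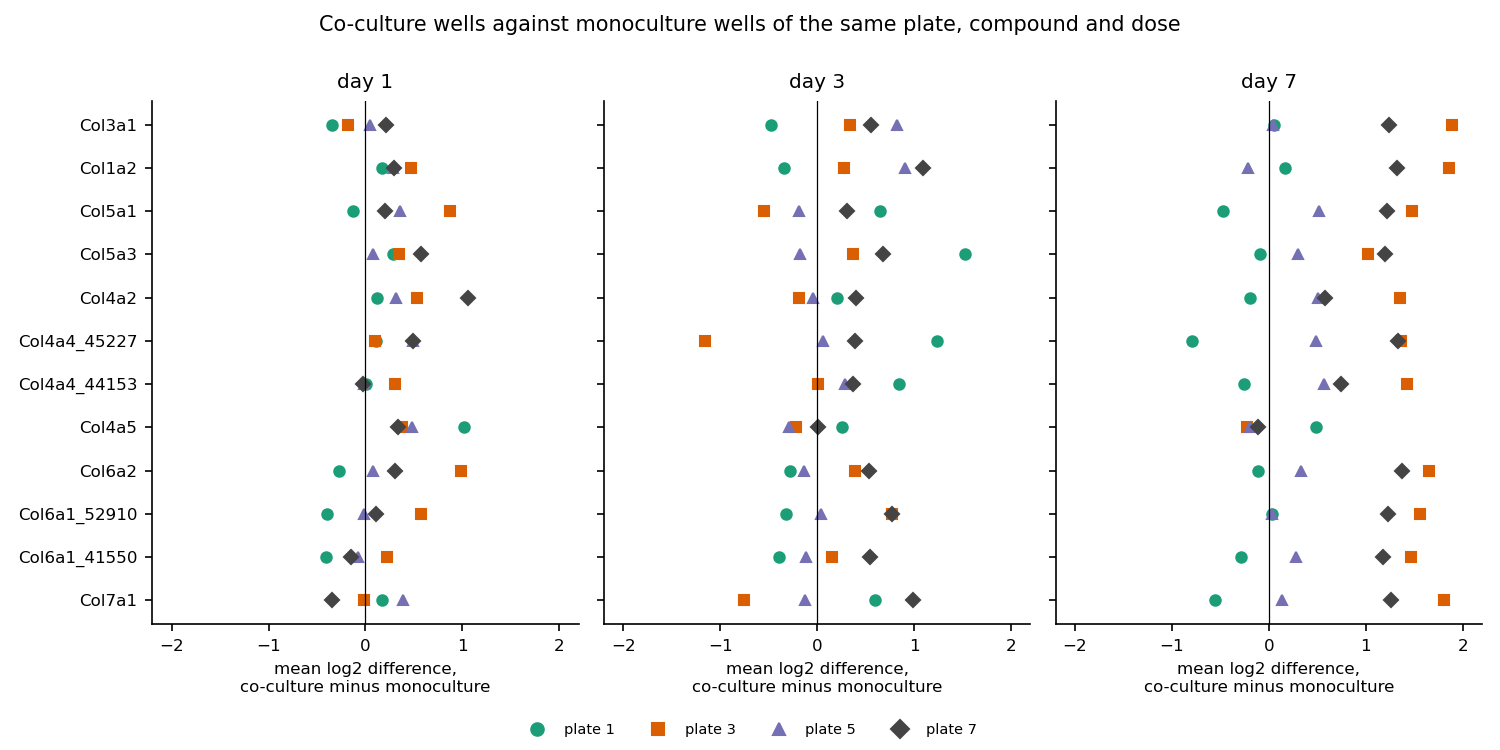
Mean log2 difference of co-culture minus monoculture over matched wells (x axis) for 12 collagen rows (y axis) on days 1, 3 and 7, with 1 symbol for each plate. On day 7 plates 3 and 7 lie right of 0 for most rows, plates 1 and 5 lie between -0.80 and 0.56, and Col4a5 lies right of 0 on 1 plate.

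Compounds were compared with vehicle on each day as the mean of the co-culture and monoculture responses. At top doses up to 9 treated libraries stood against 8 vehicle libraries, and at lower doses up to 10. The 4 compounds of 1 day share their vehicle libraries. On day 3 the top doses of phenobarbital, gemfibrozil and ketoconazole were followed by lower levels of type VI and, for some, type III chains. Vehicle libraries of day 3 detected 8459 to 13115 probes in monoculture and 9702 to 11577 in co-culture. Those of day 1 detected 11993 to 13449 and 11943 to 13429. With 0.1 µM GW7647 on day 3, 65.2% of all rows had a log2 fold change above 0, while 7 rows were called. The part of the vehicle libraries in the day 3 calls was not tested. Phenobarbital at 10 mM lowered 6 of 26 tested members on day 3 and raised none, where 7.55% of all 13439 rows were called lower and 5.11% higher. Col6a2 had 6.98, 7.92 and 2.15 CPM in phenobarbital co-cultures and 12.1, 11.8 and 4.93 CPM in phenobarbital monocultures of plates 1, 5 and 7. All 6 lay below each of the 8 vehicle libraries listed above, the lowest of which had 17.7 CPM. The log2 fold change was -2.90 ± 0.68 (adjusted p = 0.0017).

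Col6a2 averaged 56.1 ± 31.9 CPM in vehicle (SD, n = 8), and over the phenobarbital doses of 0.1, 1 and 10 mM 61.8 ± 30.5, 36 ± 20.2 and 7.66 ± 3.89 CPM (n = 6 each). Of Col3a1 the 3 phenobarbital co-cultures had 1.57, 9.42 and 3.35 CPM and the 3 monocultures 8.68, 15.7 and 2.82 CPM, with a log2 fold change of -3.23 ± 0.85 (adjusted p = 0.0062). Each was below the vehicle library of its own plate and culture. Col6a1_52910 fell by 2.60 ± 0.68, Col4a2 by 1.44 ± 0.46 and Col4a5 by 1.01 ± 0.25 on the log2 scale (adjusted p = 0.0057, 0.028 and 0.0038). The other probe of Col6a1, Col6a1_41550, was not called. Col13a1, a transmembrane collagen, had no count in the 6 phenobarbital libraries and averaged 2.19 ± 2.32 CPM in vehicle. With plate as a block 10 members were lower and 1 higher, and without plate 5 or plate 7 only 1 was called and without plate 1 only 2. The library total as covariate ended none of the phenobarbital calls.

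Gemfibrozil at 1000 µM lowered 7 of 26 members on day 3 and raised none, where 7.02% of all rows were called lower and 13.1% higher. Col6a2 had 8.35, 5.88, 21.7 and 8.62 CPM in gemfibrozil co-cultures of plates 1, 5, 7 and 9, and 4.04, 2.25, 8.18, 9.72 and 1.44 CPM in gemfibrozil monocultures of plates 1, 3, 5, 7 and 9. Its log2 fold change was -2.85 ± 0.58 (adjusted p = 0.00052), and 7 of 7 treated libraries with a vehicle library on their plate lay below it. At 10, 100 and 1000 µM it averaged 35 ± 18.7, 32.5 ± 22.6 and 7.79 ± 5.98 CPM (SD, n = 10, 10 and 9). Col3a1 averaged 10.6 ± 6.87 CPM with 1000 µM gemfibrozil and 62.2 ± 45.7 CPM in vehicle (-2.54 ± 0.71, adjusted p = 0.0093). The other calls were both Col6a1 probes, Col18a1, Col8a1 (a short-chain collagen) and Col13a1. Without plate 5 none of the 7 calls was made, without plate 1 only 2 of them were, and with plate as a block 10 members were lower. The library total as covariate ended 5 of the 7 calls.

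Ketoconazole at 30 µM lowered Col6a2 and Col6a1_41550 on day 3, 2 of 26 members, where 2.05% of all rows were called lower and 1.14% higher. The other probe of Col6a1, Col6a1_52910, was not called. Col6a2 had 15.2, 15.1, 15.6 and 10.6 CPM in ketoconazole co-cultures and 24.9, 6.08, 8.81 and 7.21 CPM in ketoconazole monocultures (-2.09 ± 0.59, adjusted p = 0.03), below the vehicle library of its plate in 8 of 8 cases. At 1, 10 and 30 µM Col6a2 averaged 38.2 ± 32.8, 21.9 ± 15 and 12.9 ± 6.13 CPM (SD, n = 8 each). Leaving out any 1 plate ended both calls, as did the library total as covariate, and with plate as a block 5 members were lower. GW7647 at 1 µM changed 0 of 26 members on day 3 by edgeR and 0 by DESeq2, with 3 members at an unadjusted p under 0.05, where 0.275% of all rows were called higher and 0.0149% lower. Col6a2 averaged 33.7 ± 33.2, 31.6 ± 24.4 and 32.8 ± 23.7 CPM with 0.01, 0.1 and 1 µM GW7647 (SD, n = 8, 8 and 9), and 1 co-culture library at 1 µM held no count of it.

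On day 1 the calls fell on Col5a3, Col13a1, Col18a1, Col20a1, Col6a6 and Col4a2, of which Col13a1, Col18a1 and Col4a2 were also among the day 3 calls. Ketoconazole at 30 µM lowered Col5a3 to 0, 2.82, 1.59 and 2.7 CPM in ketoconazole co-cultures and 3.92, 3.04, 1.45 and 2.17 CPM in ketoconazole monocultures. The vehicle libraries of that day, listed above, had 6.22 to 40.5 CPM and overlapped none of them. Its log2 fold change was -2.93 ± 0.47 (adjusted p = 2.6e-06), and it passed whichever plate was left out. Col5a3 averaged 16.9 ± 10.4 CPM in vehicle, and at 1, 10 and 30 µM ketoconazole 15.1 ± 6.44, 2.97 ± 1.95 and 2.21 ± 1.2 CPM (SD, n = 8 each). The dose of 10 µM also passed (-2.49 ± 0.45, adjusted p = 0.0011). At 10 µM the call was lost without plate 3 (adjusted p = 0.25) and without plate 5 (0.059). Col13a1 and Col18a1 were lower as well, at -3.72 ± 0.92 and -1.95 ± 0.70 (adjusted p = 0.0022 and 0.042). The call of Col18a1 was lost without plate 1, 5 or 7 (up to 0.19). Blocking on plate, 5 members were lower. These 3 of 19 tested members compare with 9.19% of all 12504 rows called lower and 8.13% higher on that day.

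Gemfibrozil at 1000 µM raised Col20a1, a fibril-associated collagen, on day 1, to 13.1 ± 10 CPM, against 0.918 ± 1.5 CPM in vehicle (SD, n = 8 each, 4.13 ± 1.13, adjusted p = 0.007). Its lowest, median and highest treated values were 3.13, 13.3 and 31.9 CPM, and those of vehicle 0, 0.368 and 4.44 CPM, so the groups overlapped. At 100 µM it averaged 11.1 ± 14.5 CPM and passed too (3.80 ± 1.11, adjusted p = 0.023). Col6a6, a further type VI chain, was called higher at 100 µM and at 1000 µM. With 1000 µM it had 0.926 ± 1.12 CPM in treated wells and 0.205 ± 0.318 CPM in vehicle, where 8 libraries held 11 counts. The Col6a6 call at 1000 µM was lost whichever plate was left out, and with no filter (adjusted p up to 0.26). Against the vehicle library of the same plate and culture, Col6a6 was higher in 4 of 8 cases and lower in 2. Both calls at 100 µM were lost without plate 1, 5 or 7 (adjusted p up to 0.25 for Col20a1 and 0.23 for Col6a6). Col18a1 was lower, at 1.51 ± 1.47 CPM with gemfibrozil and 7.85 ± 3.39 CPM in vehicle (-2.35 ± 0.71, adjusted p = 0.015). Of 19 tested members 2 were called higher and 1 lower with 1000 µM, close to the shares of all rows, 9.84% higher and 7.51% lower. Without plate 5 none of these 3 calls was made, without plate 1 only 1 was, and without plate 3 or plate 7 only 2 were.

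Phenobarbital at 10 mM changed 2 of 19 tested members on day 1, 1 higher and 1 lower. These shares were not above those of all rows, of which 9.26% were called higher and 7.77% lower. Col4a2 had 22.5, 4, 11.7 and 1.17 CPM in phenobarbital co-cultures and 3.89, 2.7, 8.22 and 2.79 CPM in phenobarbital monocultures (-1.50 ± 0.54, adjusted p = 0.046), below the vehicle library of its plate in 8 of 8 cases. Col20a1 was called higher (3.13 ± 1.09, adjusted p = 0.036), with a lowest, median and highest value of 0, 2.53 and 38.5 CPM with phenobarbital. Col4a2 was not called whichever plate was left out, nor Col20a1 without plate 5 or plate 7, while without plate 1 there were 4 calls in all, and with plate as a block 7 members were lower and 1 higher. GW7647 at 1 µM changed 0 of 19 members on day 1 by edgeR and 0 by DESeq2, with 1 at an unadjusted p under 0.05, where 0.312% of all rows were called higher and 0.04% lower. That was Col5a3, at 7.15 ± 3.57 CPM with GW7647 (-1.26 ± 0.43, adjusted p = 0.34).

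On day 7 no collagen row passed the test with any compound by edgeR. Of 35 tested members 9, 0, 5 and 9 had an unadjusted p under 0.05 with phenobarbital, GW7647, gemfibrozil and ketoconazole. Of all 13707 rows 2.81% were called higher and 3.28% lower with phenobarbital, 0.0219% and 0% with GW7647, 0% and 0% with gemfibrozil, and 0.372% and 0.146% with ketoconazole. DESeq2 called Col12a1 and Col4a4_44153 lower with phenobarbital, and 0 members with each of the other compounds. Blocking on plate, 14 members were lower with 10 mM phenobarbital and 0 with the other compounds. The shares of all rows above are those without the block, so they are no measure for that count. Col6a2 had 1237, 417, 1065 and 128 CPM in phenobarbital co-cultures and 619.7, 106, 903 and 46.3 CPM in phenobarbital monocultures, where vehicle libraries ran from 276 to 3231 CPM. Each phenobarbital library lay below the vehicle library of its own plate and culture, and the groups overlapped. The log2 fold change was -1.39 ± 0.74, with an adjusted p of 0.27, and of 0.00028 with plate as a block. Without plate 5, 1 member was called with phenobarbital.

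**Figure D4:**
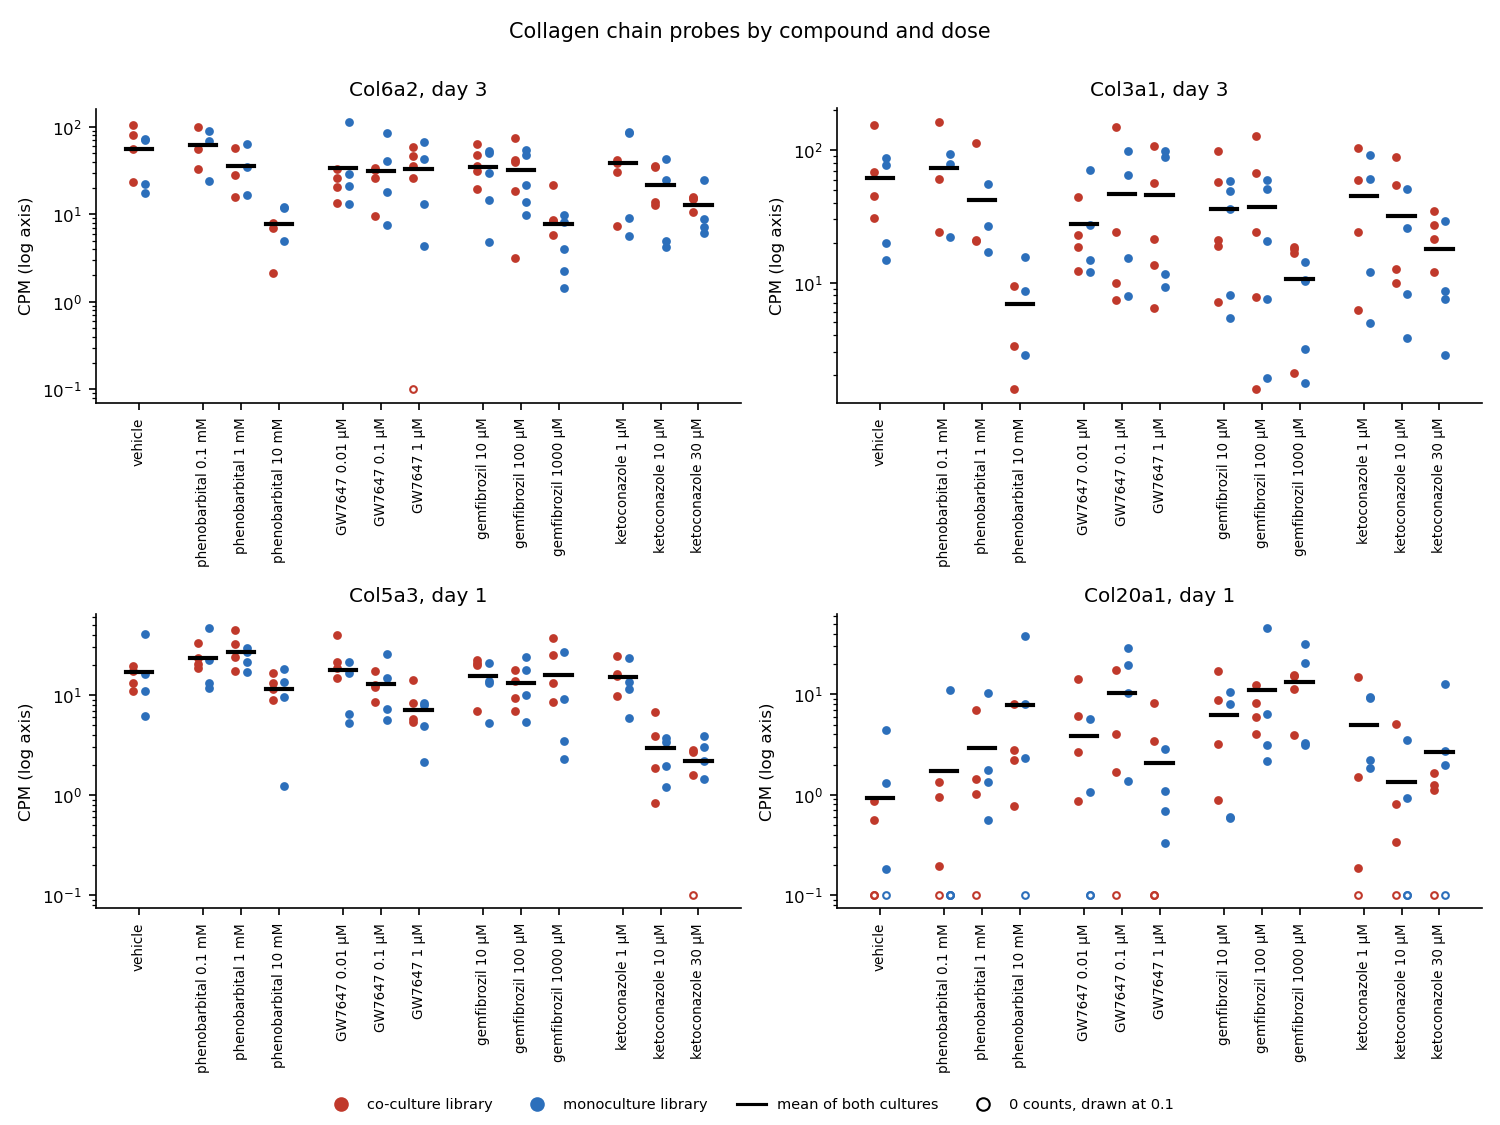
Level (CPM, log axis) of Col6a2 and Col3a1 on day 3 and of Col5a3 and Col20a1 on day 1, in every library by compound and dose with vehicle at the left end, for co-culture (red) and monoculture (blue), with lines at the mean of both and open symbols for 0 counts. Col6a2 and Col3a1 are lowest at 10 mM phenobarbital and 1000 µM gemfibrozil, and Col5a3 is low at 10 and 30 µM ketoconazole but not at 1 µM.

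The lower doses gave 3 calls in 24 comparisons, those of Col20a1, Col6a6 and Col5a3 named above. Each comparison tested 19, 26 or 35 members on days 1, 3 and 7. The share of members called was not above the 0.604% of all rows called in either direction. Without plate 5 there were 0 calls at lower doses and without plate 1 or plate 7 only 1, and with plate as a block there were 6. The response of co-culture minus that of monoculture was called for 0 members in 12 comparisons of top doses by edgeR and 0 by DESeq2, where 0.00189% of all rows were called.

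**Figure D5:**
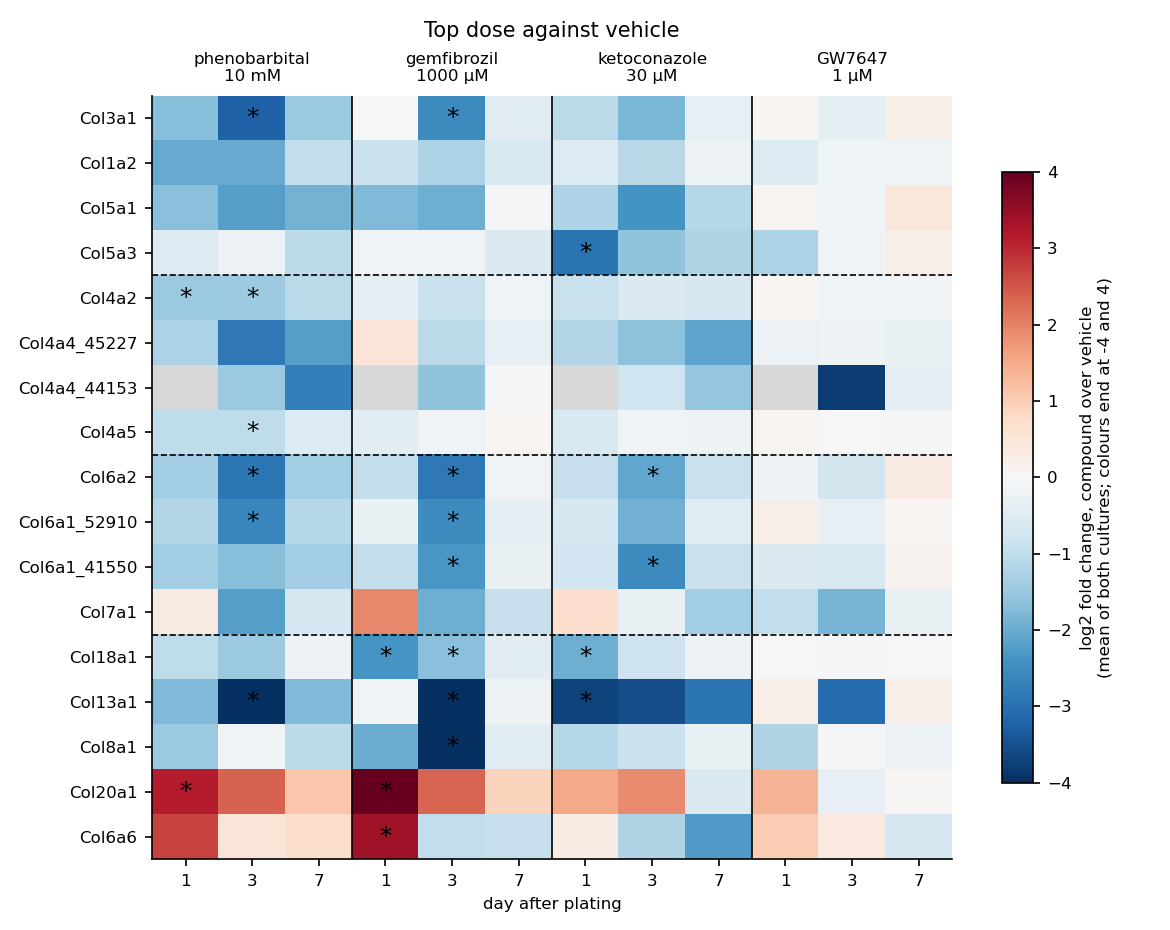
Log2 fold change (colour, ending at -4 and 4) of 17 collagen rows (y axis) for the top dose of each compound over vehicle on days 1, 3 and 7 (x axis), as the mean of both cultures, with asterisks at an adjusted p under 0.05 and grey where a row was not tested. Asterisks for lower Col6a1 or Col6a2 stand on day 3 with phenobarbital, gemfibrozil and ketoconazole, and no asterisk stands on day 7.

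Chains of 1 trimer were compared by their means over the 78 groups, which share plates and depth, so rank correlations are descriptions. The 2 probes of Col6a1 had a Spearman rho of 0.939 over all groups and 0.971 over the 26 groups of day 7, and Col6a1_52910 with Col6a2 had 0.969 and 0.970. Col1a2 with Col1a1 had 0.838 over all groups and 0.610 on day 7. Among the head-to-head pairs, Col4a1 with Col4a2 had 0.765 over all groups and 0.193 on day 7, Col4a3 with Col4a4_45227 had 0.738 and 0.608, and Col4a5 with Col4a6 had 0.510 and 0.441. Over all groups and on day 7, Col4a2 was closer to Col3a1 (0.940 and 0.897) than to Col4a5 (0.602 and -0.0557). On day 1 that order was reversed, with 0.371 for Col3a1 and 0.687 for Col4a5, and on day 3 they had 0.521 and 0.455. The 2 probes of Col4a4 had 0.836 over all groups and 0.962 on day 7. Within day 1 the 2 probes of Col4a4 had 0.160 and those of Col6a1 0.181. Col6a1_52910 with Col6a2 had 0.556 there, Col4a5 with Col4a6 0.467 and Col1a2 with Col1a1 -0.257. Values over all groups thus include the difference between days. Col4a1, Col4a3 and Col4a6 averaged 0.509, 0.242 and 0.240 CPM, and counts that low blur a rank.

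The machinery that makes and remodels collagen was read beside the chains, from lists of genes written for this purpose. Some share names with the marker lists (Loxl1, Sparc, Lum and Postn). All these lists were chosen with earlier results of these data known, so their counts are descriptions. On day 7 against day 1 in vehicle wells, 15.2% of all rows were called higher in co-culture and 13.7% in monoculture, and 7.56% and 8.75% lower. The median log2 fold change over all rows was 0.22 and 0.24. There, 9 of 18 tested rows for collagen folding and hydroxylation were higher in co-culture and 1 lower, with a median log2 fold change of 1.93, and 8 were higher and 1 lower in monoculture, with a median of 1.83. Serpinh1, the collagen chaperone HSP47, rose by 4.13 ± 0.65 in co-culture (adjusted p = 0.00011). Of 9 rows for propeptide processing and crosslinking, 5 were higher in co-culture and 4 in monoculture, and none lower. Loxl1, a lysyl oxidase that crosslinks matrix proteins, rose by 7.01 ± 0.70 in co-culture (adjusted p = 5.7e-07). Of 5 rows for proteins that sit on fibrils, 4 were higher in each culture, among them Sparc at 6.44 ± 0.95 and Bgn (biglycan) at 6.66 ± 1.13 in co-culture (adjusted p = 5.7e-05 and 0.00022). Of 6 rows for collagen receptors, 4 were higher in co-culture and 3 in monoculture. Of 8 rows for degradation, 5 were higher and 1 lower in each culture, with Mmp2 (gelatinase A) at 5.99 ± 1.09 in co-culture (adjusted p = 0.00043). Of 9 rows for transforming growth factor beta inputs, 1, Tgfb1, was higher in each culture, a share close to that of all rows.

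Markers of liver cell types moved on the same days. On day 7 against day 1, 12 of 13 tested stellate and mesenchymal rows were higher in co-culture and 11 in monoculture, none lower, with medians of 6.29 and 5.75. Over all rows 15.2% were called higher in co-culture and 13.7% in monoculture, and 7.56% and 8.75% lower. Their summed level over 20 rows was 87.9 to 289.7 CPM on day 1, 609.7 to 1198 on day 3 and 1963 to 10316 on day 7 in co-culture, and 71.7 to 394, 393 to 1065 and 1012 to 5828 CPM in monoculture. Gfap, Lum, Pdpn, Postn and Thy1 were at 0 in all co-culture vehicle libraries of day 1, and none of the 20 was at 0 throughout those of day 7. Of 14 hepatocyte rows 8 were lower in co-culture and 7 in monoculture on day 7, none higher, and the summed level of 15 rows was 8487 to 12872 CPM on day 7 and 47242 to 91331 CPM on day 1 in co-culture. In monoculture it was 3984 to 17366 CPM on day 7 and 38186 to 57034 CPM on day 1.

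Between the cultures, macrophage markers summed on day 7 to 967 to 1941 CPM in co-culture and 339.9 to 746 CPM in monoculture, without overlap, while on days 1 and 3 the cultures overlapped. In vehicle wells on day 7, 0 of all 11823 rows tested were called higher or lower in co-culture. How many of all rows do not overlap was not counted, so these sums are a description. Timd4, a marker of resident macrophages, was at 0 in all vehicle libraries. Endothelial markers summed to 62.8 to 301 CPM in co-culture and 17.8 to 172 CPM in monoculture, and stellate and mesenchymal markers overlapped between the cultures. On day 7 against day 1, 8 of 13 macrophage rows were higher and 2 lower in co-culture, and 6 higher and 1 lower in monoculture. Of 11 endothelial rows 2 were higher in each culture, close to the 15.2% and 13.7% of all rows, and of 10 cholangiocyte rows 7 were higher in each.

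On day 3 some of the same markers were lower with the compounds at which type VI chains were lower. With 10 mM phenobarbital 7 of 13 stellate and mesenchymal rows, 3 of 13 macrophage rows, 3 of 11 endothelial rows, 2 of 10 cholangiocyte rows and 2 of 14 hepatocyte rows were lower, where 7.55% of all rows were. The stellate and mesenchymal sum was 67.9 to 342 CPM in phenobarbital co-cultures and 609.7 to 1198 CPM in vehicle co-cultures, and 54.8 to 270.0 and 393 to 1065 CPM in monocultures. With 1000 µM gemfibrozil 5 of 13 stellate and mesenchymal rows and 5 of 14 hepatocyte rows were lower, where 7.02% of all rows were. With 30 µM ketoconazole 1 of 13 and 1 of 14 were lower, against 2.05% of all rows, and counts of 1 or 2 rows are too few to set a list apart from all rows. Serpinh1 was lower with 10 mM phenobarbital by 2.56 ± 0.45, with gemfibrozil by 1.31 ± 0.38 and with ketoconazole by 1.75 ± 0.39 on the log2 scale (adjusted p = 3.1e-05, 0.011 and 0.0045). The part of cell make-up in the changes of the collagen rows, over days or with compounds, was not tested.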

How the data were processed

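Counts per probe were deposited as 1 table of whole numbers for 311 libraries, made by BioSpyder per the labels, with no normalization. The submitters' processing notes name Bowtie. Its version is not given in the sources used here, nor is a genome build. All 22253 probes entered, no column was unmapped, and no pair of libraries held identical values. Members and lists were chosen with earlier results of these data known.

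Tests on these counts used edgeR 4.0.16 in R 4.3.3 (filterByExpr with a minimum count of 10, TMM scaling, quasi-likelihood test, two-sided, Benjamini-Hochberg over all rows tested, threshold 0.05). The 24 vehicle libraries, the 24 sums of treated wells and the 26 groups of each day had a fit each. Levels are CPM on TMM-scaled totals, within-plate values are log2(CPM + 0.5), and a standard error is the log2 fold change over the root of F. A floor is 3 counts over the group. The scripts were tested on simulated data.

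Rows given in full were, in each class, the 4 of highest mean CPM, with up to 4 further called rows of smallest p in each comparison. The plate, a shared batch in the labels, pairs libraries across groups: residuals of libraries of 1 plate had a mean correlation of 0.176 in vehicle wells, 0.254 in sums and 0.208, 0.176 and 0.268 on days 1, 3 and 7, and those of different plates -0.0579, -0.0844, -0.0687, -0.0473 and -0.0890. The main test was set without that block. Alternatives were the plate block, DESeq2 1.42.0, its size factors, no filter, the library total as covariate, only the groups compared, mean log2 CPM with limma 3.58.1 (prior count 2), each culture alone, and leaving out each plate.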

Additional observations from a re-analysis of the deposited data

Results flagged for a closer look

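The 12 rows of highest level by class and the summed collagen level made 78 sets of 4 values, each from 1 vehicle group. In 8 of them 1 library lay further from the others than Dixon's 95% limit allows, where chance gives about 1 in 20, and sets of 1 group share their libraries. In monoculture on day 7 these were Col3a1 at 7707 CPM, against a group median of 1130.0 CPM, Col4a4_45227 at 175 CPM (median 13.8) and Col4a4_44153 at 25.2 CPM (median 2.57), all on plate 5. On day 3 Col1a2 stood apart on plate 5 at 107 CPM in co-culture (median 29.8) and 44.8 CPM in monoculture (median 10.9). On day 1 the values were 3.28 CPM of Col5a1 in monoculture (plate 5, median 0.897), 1.73 CPM of Col4a4_44153 in co-culture (plate 3, median 0.111) and 0.111 CPM of Col7a1 in co-culture (plate 5, median 0), the last of which is 1 count.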

How the results depend on the processing

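Of 225 calls of single members none changed sign under any alternative that was run. The plate block and DESeq2 lost 0 of the 225, TMM replaced by DESeq2's size factors 4, no filter 11 and the library total as covariate 20. Limma lost 6 of the 113 it was run on, and only the groups compared 16 of 204. Leaving out plates 1 and 3 lost 55 and 44 of 225, and plates 5 and 7 lost 78 and 42 of 224. Depth limits what can be said of rows under about 1.71 CPM.

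Counts of members called moved by more than 1.5 times as follows. Day 3 against day 1 in vehicle monoculture gave 1 call, and 6 with DESeq2, 2 with no filter, 5 with the plate block and 0 with the library total as covariate. In vehicle co-culture it gave 6, and 11 with DESeq2, 11 with the plate block and 0 with the covariate. Among treated wells it gave 5 in monoculture, with 12 under DESeq2 and 15 under the block, and 4 in co-culture, with 13 under DESeq2, 18 under the block and 11 with only the groups compared. Phenobarbital gave 2 calls on day 1, with 8 under the block, 1 with size factors, no filter or only the groups compared, and 0 in either culture alone. On day 3 it gave 6, with 11 under the block and 1 in either culture alone, and on day 7 it gave 0, with 14 under the block and 2 with DESeq2 or the covariate. GW7647 on day 3 gave 0, with 1 under the covariate. Gemfibrozil gave 3 on day 1, with 0 in either culture alone, and 7 on day 3, with 2 under the covariate, 4 with only the groups compared, 1 in monoculture alone and 0 in co-culture alone. Ketoconazole gave 3 on day 1, with 5 under the block and 1 with only the groups compared or in either culture alone. On day 3 it gave 2, with 5 under the block, 4 with DESeq2 or only the groups compared, and 0 under the covariate or in either culture alone. The lower doses gave 3, with 6 under the block. The cause of these moves was not tested. The block changed no other count by that much.

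Leaving out 1 plate gave 0 to 0 calls for day 3 against day 1 in vehicle monoculture and 0 to 2 in co-culture, 2 to 3 and 1 to 4 among treated wells. Day 7 against day 1 gave 16 to 20 in vehicle monoculture, 19 to 20 in co-culture, 23 to 25 and 24 to 26 among treated wells. Day 7 against day 3 gave 11 to 18 and 14 to 17 in vehicle wells, and 13 to 20 and 14 to 23 among treated wells. Phenobarbital gave 0 to 4, 1 to 6 and 0 to 1 calls on days 1, 3 and 7, gemfibrozil 0 to 2 and 0 to 8 on days 1 and 3, ketoconazole 2 to 3 and 0 to 0, and the lower doses 0 to 2. The other comparisons gave 0 throughout.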
